A study of Mus musculus with 10 samples.

Results

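The 5 nicotinic acetylcholine receptor subunit genes Chrna4 (ENSMUSG00000027577), Chrnb2 (ENSMUSG00000027950), Chrna7 (ENSMUSG00000030525), Chrna2 (ENSMUSG00000022041) and Chrnb1 (ENSMUSG00000041189) were followed in RNA-seq libraries of the mouse medial habenula, a small epithalamic nucleus with cholinergic neurons. They were chosen by name, as the rows whose Ensembl identifier maps to these symbols, and are 5 of the 56691 genes in the deposited table. The nicotine withdrawal group was 6 wild-type mice given nicotine ditartrate intraperitoneally at 4 mg/kg a dose for 14 days and saline instead from day 15. The control group was 4 wild-type mice given intraperitoneal saline for 17 days. Tissue was collected on day 17 in both groups, and there was 1 library per mouse. The sources used here give no strain, age, sex, litter or batch. The p-values measure the spread between these libraries.

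Nicotinic receptors are cation channels of a ring of subunits opened by acetylcholine or nicotine. Most of the brain uses receptors built from the alpha4 and beta2 subunits, which bind nicotine with high affinity, and receptors of alpha7 alone, which pass calcium and desensitise fast. The medial habenula is known instead for receptors with alpha3 and beta4 subunits, often joined by alpha5 or beta3. Alpha2 is restricted to a few neuron types in the rodent brain, and beta1 is the beta subunit of the muscle receptor at the motor endplate.

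Library totals ran from 15023448 to 22026333 counts. The libraries named control 2 and withdrawal 2 stood apart: Chat, the acetylcholine-synthesising enzyme, was at 0.03 FPKM (fragment counts divided by gene length and sequencing depth) in control 2 and 0.04 FPKM in withdrawal 2, against 5.70 to 8.80 FPKM in the other 8. The material is labelled both as cholinergic neurons sorted by flow cytometry and as tissue, and markers of other cells were present in all 10 libraries. The myelin gene Mbp was at 296.5 to 710 FPKM, the astrocyte gene Gfap at 54.4 to 151 FPKM and the choroid plexus gene Ttr at 18.8 to 9861 FPKM. The group comparisons of the members are given over all 10 libraries and over the 8 without control 2 and withdrawal 2. Other results name the set of libraries they cover. A gene entered the tests if its mean FPKM was at least 1; 4 of the 5 subunit genes did so in both sets, and Chrna2 did not.

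The members differed widely in level. Over all 10 libraries the mean was 13.4 ± 3.66 FPKM (SD, n = 10) for Chrnb2 and 8.16 ± 3.20 FPKM for Chrna4. Chrna7 was at 1.88 ± 0.822 FPKM, Chrnb1 at 1.60 ± 0.618 FPKM and Chrna2 at 0.123 ± 0.138 FPKM. FPKM is scaled to gene length, so these levels can be set side by side within a library. Chrnb2 exceeded Chrna4 in 10 of 10 libraries, by 0.78 ± 0.276 (SD) in log2 FPKM (exact 2-sided sign-flip permutation test, p = 0.00195, Benjamini-Hochberg adjusted over 4 neighbouring pairs 0.00391). Chrna4 exceeded Chrna7 in 9 of 10 libraries (mean log2 difference 2.09 ± 1.14, exact permutation adjusted p = 0.00521), the exception being control 2. Chrna7 and Chrnb1 did not separate: Chrna7 was higher in 6 of 10 libraries, with a log2 difference of 0.22 ± 0.850 (exact permutation p = 0.514). Chrnb1 exceeded Chrna2 in 10 of 10 libraries (difference in log2(FPKM + 0.1) 3.07 ± 0.969, exact permutation adjusted p = 0.00391).

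**Figure D1:**
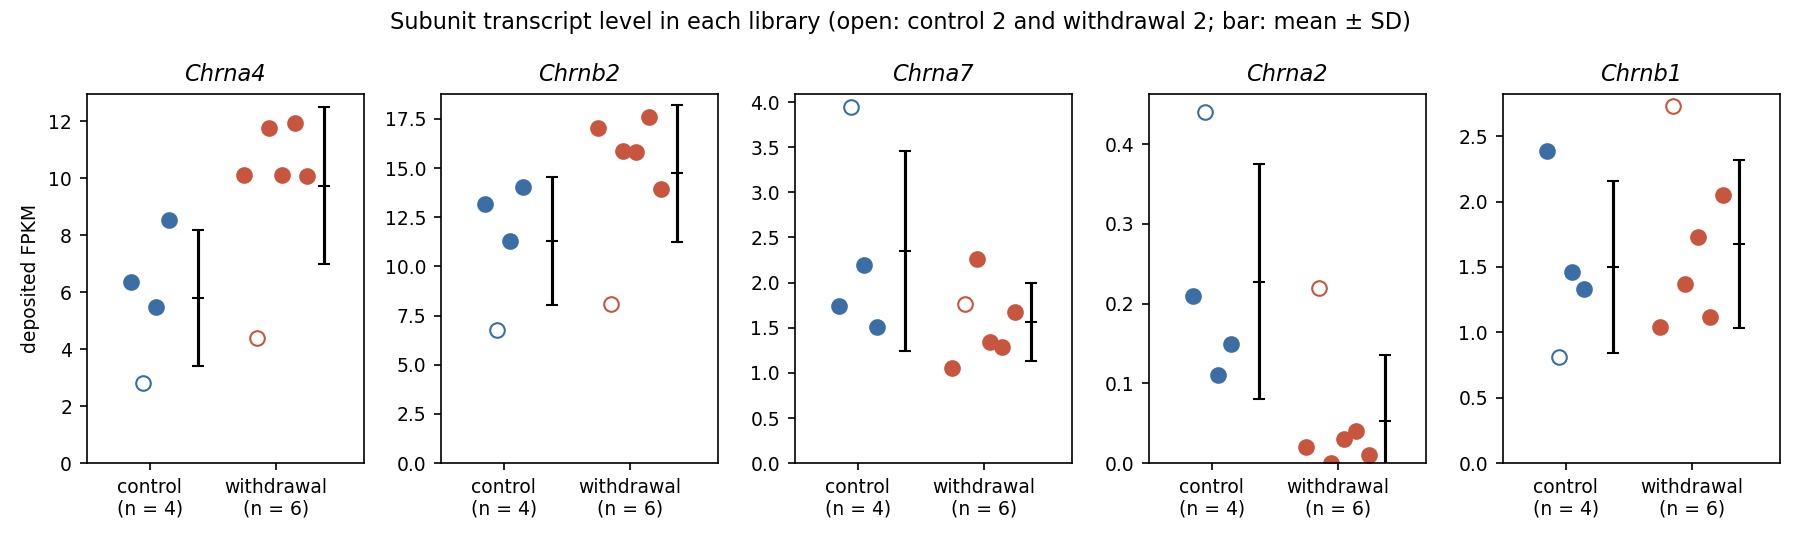
Deposited FPKM of each subunit gene, 1 point per library, for control (n = 4) and withdrawal (n = 6), with open points for control 2 and withdrawal 2 and bars for the mean and SD over all libraries of a group (cut at 0 for Chrna2). Among the filled points, Chrna4 is higher and Chrna2 lower in every withdrawal library than in every control library, and the groups overlap for the other genes.

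The share of these genes among all subunits differed in the 2 unusual libraries. Those libraries were set apart because habenula transcripts were near-absent in them, and Chrna3, Chrnb4 and Chrnb3 are medial habenula markers. The difference in share thus follows from that choice and is no separate result. Summed FPKM of the 5 members was itself lowest there, 14.75 in control 2 and 17.18 in withdrawal 2, against 20.54 to 31.99 in the 8 libraries. The mouse genes listed for nicotinic subunits number 16, and the 5 members held 21.4% to 32.3% of their summed FPKM in 8 libraries, against 70.3% in control 2 and 78.0% in withdrawal 2. Chrna3, Chrnb4 and Chrnb3 together held 66.0% to 76.4% in the 8 libraries, 4.53% in control 2 and 4.36% in withdrawal 2. The summed FPKM of all 16 genes was 89.6 to 129 in the 8 libraries, 21.0 in control 2 and 22.0 in withdrawal 2. Chrna4 and Chrnb2 alone were 18.1% to 29.9% of it in the 8 libraries, 45.5% in control 2 and 56.6% in withdrawal 2. In these 2 libraries the member levels were thus measured beside little Chrna3, Chrnb4 and Chrnb3. Chrna5 differed between them, at 4.78 FPKM (22.8% of the sum) in control 2 and 0.22 FPKM (0.999%) in withdrawal 2.

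**Figure D2:**
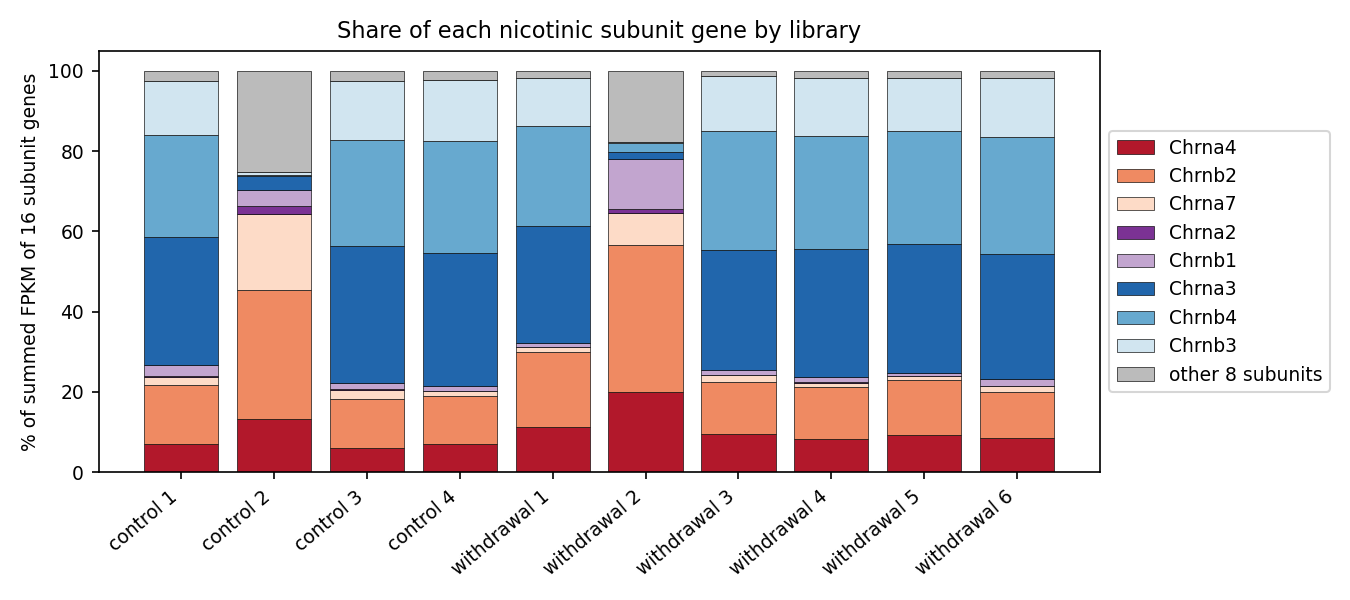
Percent of the summed FPKM of 16 nicotinic subunit genes held by each gene (stacked colours) in each library (bars). Chrna3, Chrnb4 and Chrnb3 take most of 8 bars, and Chrnb2, Chrna4, Chrna7 and Chrnb1 take most of the bars of control 2 and withdrawal 2.

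Chrna4 encodes the alpha4 subunit, which forms the agonist site together with beta2. Its level was 6.36, 5.48 and 8.55 FPKM in controls 1, 3 and 4. It was 10.12, 11.76, 10.13, 11.93 and 10.10 FPKM in withdrawal libraries 1, 3, 4, 5 and 6. Every one of these 5 withdrawal libraries was above every one of the 3 controls. Control 2 had 2.80 FPKM and withdrawal 2 had 4.38 FPKM, the lowest values of their groups, so that over all 10 libraries the groups overlapped. Over the 8 libraries Chrna4 averaged 6.80 ± 1.58 FPKM in controls (SD, n = 3) and 10.8 ± 0.949 FPKM in withdrawal (n = 5). It rose by 0.65 in log2 (SE 0.129, edgeR quasi-likelihood test, adjusted p = 0.0137), and it passed in each of the 8 fits that left out 1 library (0.53 to 0.84, edgeR adjusted p from 0.00349 to 0.0464). Chrna4 was the only one of the 4 filtered members to pass the test there, in a comparison in which 2056 of 14993 genes (13.7%) passed, 936 (6.24%) higher and 1120 (7.47%) lower. A rise without overlap of the groups was found for 1687 genes (11.3%), so Chrna4 shared this pattern with many genes.

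Over all 10 libraries Chrna4 averaged 5.80 ± 2.38 FPKM in controls (SD, n = 4) and 9.74 ± 2.76 FPKM in withdrawal (n = 6). The log2 difference was close to that of the 8 libraries, 0.70, but its SE was 0.296 and it did not pass (edgeR adjusted p = 0.303). None of the 4 filtered members passed in edgeR, in DESeq2 or in limma over 10 libraries, where edgeR called 31 of 14928 genes (0.208%). At an unadjusted p under 0.05, edgeR had 1 of the 4, limma 1 and DESeq2 2. Of all 14928 genes, 2306, 2267 and 2666 were under it in edgeR, limma and DESeq2. In bulk RNA, fewer cells of a type and less RNA per cell cannot be told apart, which holds for each change given here.

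Chrnb2 encodes the beta2 subunit, the usual partner of alpha4 and of several other alpha subunits. Its level was 13.19, 11.29 and 14.03 FPKM in controls 1, 3 and 4, and 6.75 FPKM in control 2. It was 17.02, 15.88, 15.83, 17.61 and 13.93 FPKM in withdrawal libraries 1, 3, 4, 5 and 6, and 8.09 FPKM in withdrawal 2. Without control 2 and withdrawal 2 the groups met only where withdrawal 6 lay just below control 4, and with them the groups overlapped, withdrawal 2 lying below controls 1, 3 and 4. Over the 8 libraries the means were 12.8 ± 1.40 FPKM (SD, n = 3) and 16.1 ± 1.41 FPKM (n = 5), a log2 difference of 0.30 (SE 0.0919) that missed the threshold (edgeR adjusted p = 0.0573) and passed it in DESeq2 (adjusted p = 0.0231). Over 10 libraries the means were 11.3 ± 3.25 and 14.7 ± 3.49 FPKM, and the log2 difference was 0.33 (SE 0.214, edgeR adjusted p = 0.461). In GENCODE M21 the exons of Chrnb2 overlap those of Adar, an RNA-editing enzyme gene on the opposite strand at 16.6 to 24.0 FPKM. Reads of the overlap cannot be assigned without strand, which the sources used here do not state.

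Chrna4 and Chrnb2 had a Pearson r of log2 CPM (counts scaled to a common library size) of 0.950 over 10 libraries and 0.873 over 8, with treatment and tissue content shared by the points. Many genes followed Chrna4 more closely: Chrnb2 ranked 118 of 12770 genes over 10 libraries and 465 of 12798 over 8. The promoters of both are shown because the 2 subunits assemble together. The sequences are RefSeq's, build GRCm38.p6, from 250 bases before to 50 after the gene start, on the minus strand, with matches to the GC box (GGGCGG or, on the other strand, CCGCCC) in capitals. Chrna4 lies at chr2:181039128-181039427 and Chrnb2 at chr3:89764583-89764882.
Chrna4: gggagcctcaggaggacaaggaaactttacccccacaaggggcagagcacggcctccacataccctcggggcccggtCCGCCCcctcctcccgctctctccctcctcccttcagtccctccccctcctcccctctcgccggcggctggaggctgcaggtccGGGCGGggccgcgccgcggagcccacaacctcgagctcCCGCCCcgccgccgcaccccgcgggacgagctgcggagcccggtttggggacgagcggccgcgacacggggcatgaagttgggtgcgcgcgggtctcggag
Chrnb2: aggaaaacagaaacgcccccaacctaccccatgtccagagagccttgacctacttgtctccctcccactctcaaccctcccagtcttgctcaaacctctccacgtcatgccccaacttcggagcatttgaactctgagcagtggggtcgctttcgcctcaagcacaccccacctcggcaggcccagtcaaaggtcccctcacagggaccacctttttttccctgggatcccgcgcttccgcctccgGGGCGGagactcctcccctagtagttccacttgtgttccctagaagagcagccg
The Chrna4 window held 3 GC boxes and was 74.3% G and C, and the Chrnb2 window held 1 and was 59% G and C. A GC box was present in 11714 of 32851 promoter windows of this length (35.7%), and 2 or more in 19.5%. The matches describe these letters and no binding was measured.

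The ratio of Chrna4 to Chrnb2, the subunits that assemble together, was lower in most controls. Chrna4 FPKM over Chrnb2 FPKM was 0.482, 0.415, 0.485 and 0.609 in controls 1 to 4. It was 0.595, 0.541, 0.741, 0.640, 0.677 and 0.725 in withdrawal libraries 1 to 6. Control 4 lay above withdrawal libraries 1 and 2, and the other 3 controls lay below all 6. The mean log2 ratio was -1.02 ± 0.229 (SD, n = 4) in controls and -0.62 ± 0.173 (n = 6) in withdrawal, a difference of 0.40 (exact 2-sided permutation test over 210 splits, p = 0.0238; 0.0643 adjusted over 6 ratio comparisons). Without control 2 and withdrawal 2 the difference was 0.37 (exact permutation p = 0.0357 over 56 splits, adjusted p = 0.0643). Neither passed after adjustment, but the first did so without withdrawal 2 alone (0.45, exact permutation adjusted p = 0.0357).

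**Figure D3:**
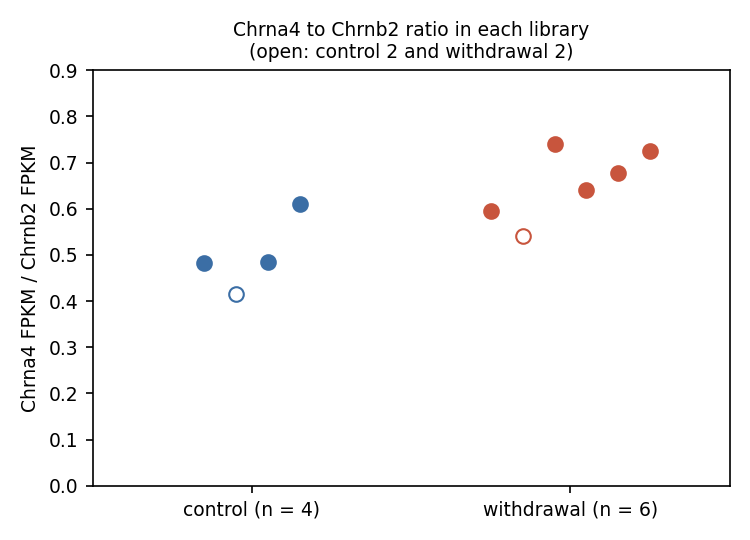
Chrna4 FPKM divided by Chrnb2 FPKM, 1 point per library, in control (n = 4) and withdrawal (n = 6), with open points for control 2 and withdrawal 2. Controls run from 0.415 to 0.609 and withdrawal libraries from 0.541 to 0.741.

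Chrna7 encodes alpha7, whose receptors need no other subunit. Its level was 1.74, 3.95, 2.20 and 1.51 FPKM in controls 1 to 4, and the withdrawal libraries ran from 1.05 to 2.26 FPKM with a median of 1.505 FPKM. Control 2 was the highest of all 10 libraries, and apart from it the groups overlapped over most of their range. The log2 difference was -0.72 (SE 0.336, edgeR adjusted p = 0.331) over 10 libraries and -0.28 (SE 0.237, edgeR adjusted p = 0.463) over 8, so it was smaller without the 2 libraries. Without control 2 alone the first was -0.23 (-0.91 to -0.23 without 1 library). The second was -0.10 without control 3, -0.17 without withdrawal 1 and -0.46 without withdrawal 3, the range over the 8 cases being -0.46 to -0.10. The log2 ratio of Chrna7 to Chrnb2 differed by -0.92 over 10 libraries (exact permutation p = 0.133, adjusted p = 0.16) and by -0.61 over 8 (exact permutation p = 0.161). It was -0.41 over 10 without control 2 and -0.38 over 8 without control 3, with ranges of -1.22 to -0.41 and -0.80 to -0.38 without 1 library. In M21 Chrna7 overlaps Gm44741 on the same strand without shared exons, and that gene was at 0 to 0.17 FPKM.

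Chrna2 encodes alpha2, and its transcript was scarce. It had 12, 7 and 12 counts in controls 1, 3 and 4, and 1, 0, 2, 3 and 1 counts in withdrawal libraries 1, 3, 4, 5 and 6. All 5 withdrawal libraries were below all 3 controls. Control 2 had 37 counts and withdrawal 2 had 17, the most in their groups. Summed over the 8 libraries, 31 of 52521340 counts in controls were Chrna2 (0.590 CPM) and 7 of 90951108 in withdrawal (0.0770 CPM), a ratio of 7.67 (95% exact interval 3.31 to 20.6, counting error only). For withdrawal 3, a count of 0 allows up to 0.155 CPM (3 counts of 19329207). Fitted with no filter on low values, Chrna2 fell by 2.87 in log2 (SE 0.684, edgeR adjusted p = 0.0156), with 1334 of 34179 genes (3.90%) called lower. Groups that did not overlap, with withdrawal lower, were found for 2411 of these genes (7.05%).

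The Chrna2 call rested on few counts and few controls. It was lost without control 1 (edgeR adjusted p = 0.0790) and without control 4 (edgeR adjusted p = 0.0540), and DESeq2, which gave a log2 difference of -2.97, returned no adjusted p. In limma the call held, but the size depended on the pseudocount, at -1.09 with 0.1 FPKM (limma adjusted p = 0.0368) and -0.18 with 1 FPKM (limma adjusted p = 0.0368). Over all 10 libraries the sums were 68 counts in controls, 37 of them in control 2, and 24 in withdrawal, 17 of them in withdrawal 2. The ratio in CPM was 4.23 (95% exact interval 2.62 to 7.04, counting error only, without the spread between mice). The log2 difference was -2.15 (SE 0.821, edgeR adjusted p = 0.431), with 21 of 35072 genes (0.0599%) called. Without withdrawal 2 alone, the log2 difference was -3.54 and passed (edgeR adjusted p = 0.0286). The Chrna2 to Chrnb2 ratio, in log2(FPKM + 0.1), differed by -1.51 over 10 libraries (exact permutation p = 0.0429) and by -1.41 over 8 (exact permutation p = 0.0179, the smallest that 56 splits allow), each at 0.0643 after adjustment, and by -1.91 (exact permutation adjusted p = 0.0357) over the 9 libraries without withdrawal 2.

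Chrnb1 encodes beta1 of the muscle receptor. It was at 2.39, 0.81, 1.46 and 1.33 FPKM in controls 1 to 4, and at 1.04 to 2.73 FPKM in the withdrawal libraries, with a median of 1.55 FPKM. The groups overlapped with and without the 2 unusual libraries, and withdrawal 2 and control 2 held the highest and the lowest value. The log2 difference was 0.12 (SE 0.328, edgeR adjusted p = 0.878) over 10 libraries and -0.26 (SE 0.269, edgeR adjusted p = 0.555) over 8.

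The members were next set against the tissue content of the libraries, read from marker lists as the mean log2 CPM of a list (its score). All 12 thalamic neuron markers passed the filter and 6 of them rose over the 8 libraries, with a median log2 difference of 1.07 against 0.0076 over all genes tested. Tcf7l2, a transcription factor of the thalamus and habenula, went from 22.6 ± 6.75 FPKM (SD, n = 3) to 45.1 ± 4.48 FPKM (n = 5), a log2 rise of 0.98 (SE 0.173, edgeR adjusted p = 0.00902). The transcription factor gene Shox2 rose by 1.48 (SE 0.287), Lef1 by 0.75 (SE 0.155) and the axon guidance gene Ntng1 by 1.22 (SE 0.276), with edgeR adjusted p of 0.0123, 0.0154 and 0.0209. Summed thalamic marker FPKM was 59.7 to 111 in controls 1, 3 and 4 and 112 to 235 in the 5 withdrawal libraries. Over 10 libraries all 12 markers had a positive difference (median 1.17), and 0 of them passed in edgeR, DESeq2 or limma, with 1, 3 and 2 at an unadjusted p under 0.05. Of all 14928 genes tested, 2306, 2666 and 2267 had such a p in these tools. The lowest scores of all were those of control 2 (2.36) and withdrawal 2 (3.23), where Shox2 was at 0.08 and 0.12 FPKM.

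The lateral habenula list moved less. Of its 10 tested genes, 3 rose over the 8 libraries: the growth cone gene Gap43 by 1.01 (SE 0.176, edgeR adjusted p = 0.00873), the calcium-binding protein gene Necab1 by 1.08 (SE 0.275, edgeR adjusted p = 0.0313) and the neuropeptide precursor gene Vgf by 0.47 (SE 0.121, edgeR adjusted p = 0.0327). The habenular receptor genes Gpr151 and Htr2c, named after their values were seen, had log2 differences of 0.07 (edgeR adjusted p = 0.657) and -0.06 (edgeR adjusted p = 0.845). The list's median was 0.27, and its score ran from 6.18 to 6.48 in controls and from 6.55 to 6.73 in withdrawal. Over 10 libraries the median was 0.38 and 0 of 10 passed in edgeR, DESeq2 or limma, with 4, 4 and 3 at an unadjusted p under 0.05. Among all 14928 genes there were 2306, 2666 and 2267 at such a p. Hippocampal and cortical markers went the other way over the 8 libraries: 4 of 8 fell, 1 rose, the median was -1.02, and the score was 5.74 to 6.98 in controls and 4.60 to 5.26 in withdrawal. All 5 oligodendrocyte markers fell (median -0.66), and 1 of 7 tested GABAergic markers fell (median -0.68). Of 5 smooth muscle and pericyte markers 2 fell (median -0.94), and of 5 astrocyte markers 2 fell (median -0.18). The 4 choroid plexus markers had a median of -1.04, with none past the threshold in edgeR, DESeq2 or limma or at an unadjusted p under 0.05. The 5 blood markers had a median of 0.81, with none past it in edgeR or limma and 1 in DESeq2 (2, 1 and 2 at an unadjusted p under 0.05). Over the 8 libraries 4604, 4606 and 4550 of all 14993 genes had such a p in edgeR, limma and DESeq2. Over 10 libraries 0 genes of these lists passed in edgeR or limma. In DESeq2 3 hippocampal and cortical markers and 1 smooth muscle and pericyte marker fell there, and 1 blood marker rose. The part of each list in the subunit changes was not tested beyond the fits given here.

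Chrnb2 tracked the thalamic score closely. Across the 8 libraries its log2 CPM had r = 0.996 with the score (exact pairing permutation p = 4.96e-05, 4.96e-04 adjusted over 10 relations; Spearman's rho 0.976, exact permutation adjusted p = 0.00397). Without control 3 and withdrawal 5, the libraries farthest from the median score, r was 0.992 (exact permutation p = 0.00278). Of 14975 tested genes outside the marker list, Chrnb2 had the highest r with this score. The points share treatment as well as tissue content. Neither group has 6 of these 8 libraries, so no relation within a group was computed.

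Chrna4 had r = 0.869 with the thalamic score (exact permutation adjusted p = 0.0157; rho 0.952, adjusted p = 0.00570), reached by 499 genes (3.33%). Without control 3 and withdrawal 5 the r was 0.67 (exact permutation p = 0.121) and rho 0.886, over 6 libraries. The relation in r thus did not pass without those libraries. It also missed the threshold after adjustment without control 3 (r = 0.75), without withdrawal 4 (0.87) and without withdrawal 5 (0.84) alone. Chrna7, Chrna2 and Chrnb1 had r of -0.69, -0.56 and -0.62 with exact permutation adjusted p of 0.1001, 0.189 and 0.143. With the lateral habenula score Chrna4 had r = 0.840 (exact permutation adjusted p = 0.0321; rho 0.881, adjusted p = 0.0241) and Chrnb2 r = 0.850 (exact permutation adjusted p = 0.0265; rho 0.690, adjusted p = 0.0991). These were reached by 1159 genes (7.74%) and 1077 genes (7.19%) of 14977, and without controls 3 and 4 they were 0.80 and 0.78 (exact permutation p = 0.0167 and 0.106). Leaving out 1 library ended the Chrna4 call in 6 of 8 cases (r from 0.69 to 0.93), all but controls 1 and 4, and the Chrnb2 call without control 3 or withdrawal 1, 4 or 5 (r from 0.72 to 0.89 over the 8 cases). The remaining 3 members had r of -0.75 (Chrna2), -0.42 (Chrna7) and -0.30 (Chrnb1), none past the threshold after adjustment. Chrna2 passed without control 1 (-0.87, exact permutation adjusted p = 0.0325). Chrna7 passed without withdrawal 3, with the lateral habenula score (-0.84) and the thalamic score (-0.94).

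Pairs of libraries with Chrna4 and Chrnb2 in opposite order were found across and within the groups, and were picked after their values were seen. Withdrawal 6 had a thalamic score of 4.99, below the 5.28 of control 4, the highest among controls. Chrnb2 kept that order, at 13.93 FPKM in withdrawal 6 and 14.03 FPKM in control 4. Chrna4 did not, at 10.10 FPKM in withdrawal 6 and 8.55 FPKM in control 4. Within the withdrawal group, library 1 had a higher score (6.16) than library 3 (5.78) and more Chrnb2 (17.02 against 15.88 FPKM) but less Chrna4 (10.12 against 11.76 FPKM).

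**Figure D4:**
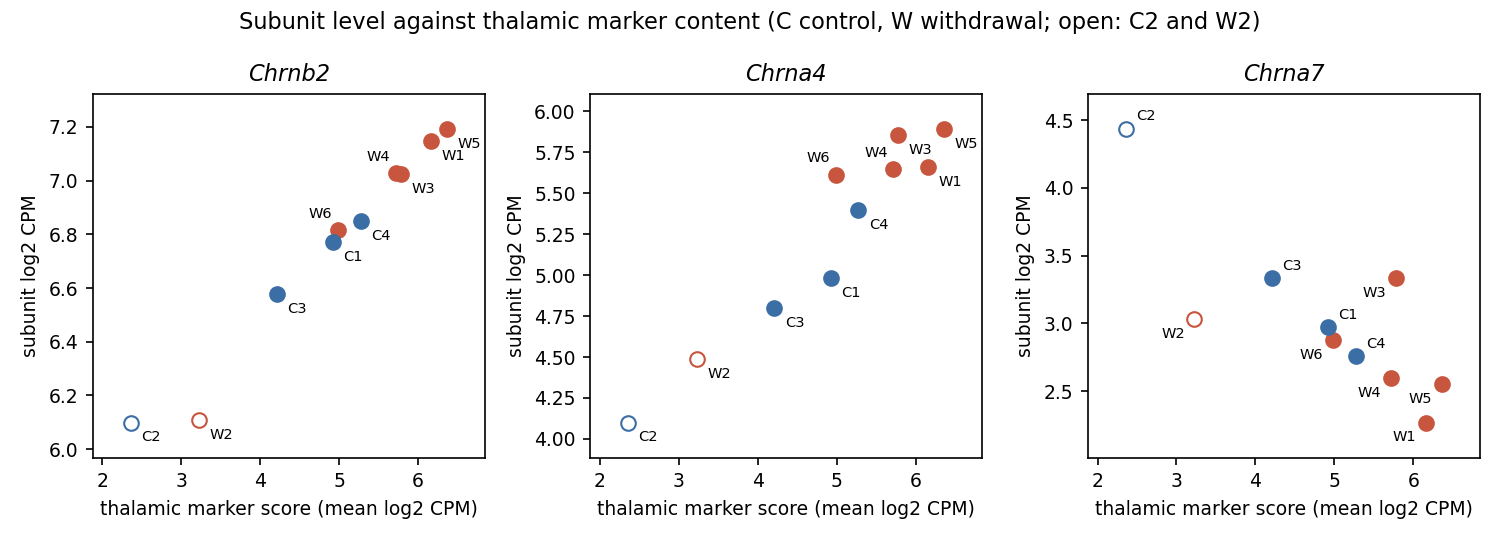
Log2 CPM of Chrnb2, Chrna4 and Chrna7 (vertical axes) against the thalamic marker score, the mean log2 CPM of 12 markers (horizontal axes), in 10 libraries, with C for control, W for withdrawal and open points for C2 and W2. Chrnb2 points lie along one line in the 8 filled libraries, Chrna4 in withdrawal 6 lies above control 4 at a lower score, and Chrna7 runs downward.

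Marker scores were added to the edgeR model, 1 at a time. The thalamic score, computed over the 8 libraries, was 4.26 to 5.31 in controls and 5.02 to 6.39 in withdrawal. The groups met only where withdrawal 6 lay below control 4, so a fit with this score can hardly tell score and treatment apart. With the thalamic score, the log2 difference of Chrnb2 over 8 libraries went from 0.30 to 0.04 (SE 0.0613, edgeR adjusted p = 0.865). That of Chrna4 went from 0.65 to 0.39 (SE 0.138, edgeR adjusted p = 0.321), and 64 genes (0.427%) passed in this fit. Chrna7 was at 0.15 (SE 0.311) and Chrnb1 at 0.16 (SE 0.337), both with the sign turned, and Chrna2 was at -3.52 (SE 1.04, edgeR adjusted p = 0.221).

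With the lateral habenula score Chrna4 was at 0.42 (SE 0.246) and Chrnb2 at 0.06 (SE 0.156), in a fit where 2 genes (0.0133%) passed. With the hippocampal and cortical score Chrna4 was at 0.26 (SE 0.200) and Chrnb2 at 0.26 (SE 0.180), and 3 genes (0.0200%) passed. Both scores separate the 8 libraries by group without overlap, so that score and treatment cannot be told apart in these fits. The medial habenula score overlapped between groups (6.33 to 6.79 in controls, 6.19 to 6.80 in withdrawal). With it Chrna4 was at 0.60 (SE 0.120, edgeR adjusted p = 0.0212) and Chrna2 at -2.85 (SE 0.743, edgeR adjusted p = 0.0354), while 1653 genes (11.0%) passed. Over all 10 libraries, whose spread in this score is set by control 2 and withdrawal 2, the same term gave Chrna4 0.57 (SE 0.114, edgeR adjusted p = 0.0234), with 857 genes (5.74%) called.

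**Figure D5:**
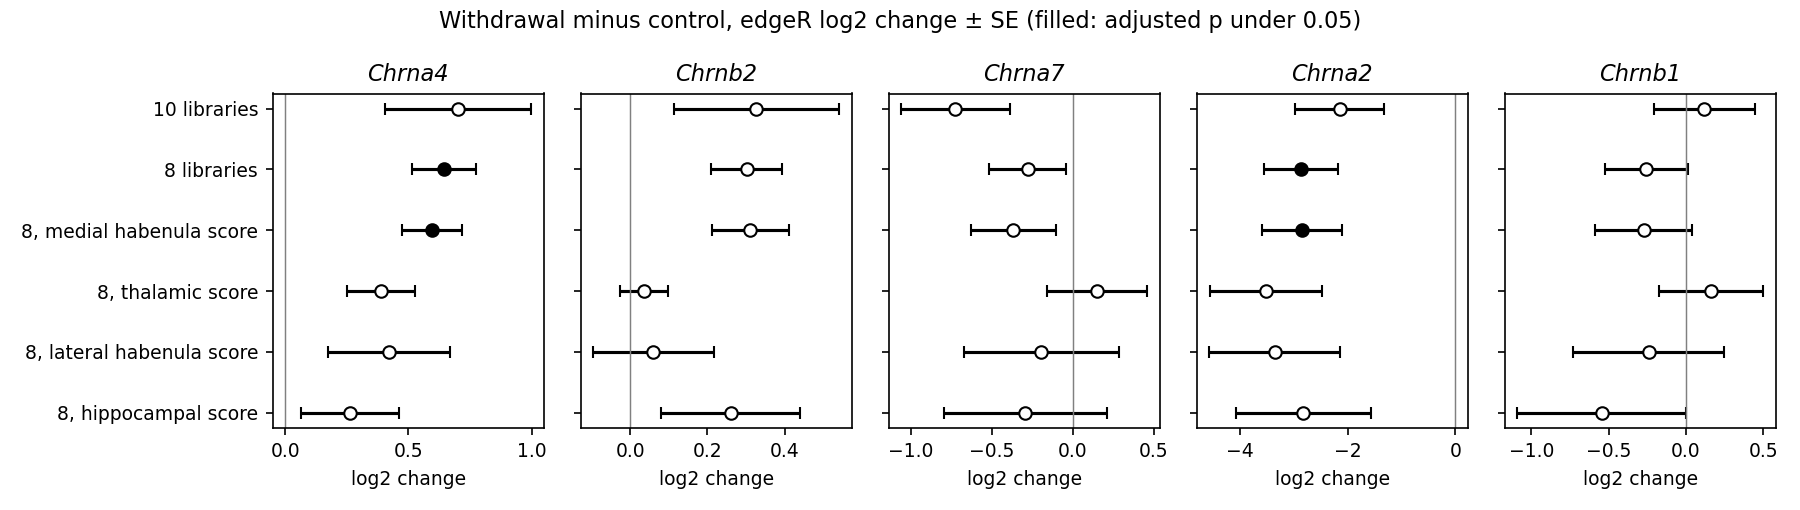
Log2 difference, withdrawal minus control, of each subunit gene from edgeR with its SE (bars), over 10 libraries, over 8, and over 8 with a marker score as covariate (rows), with filled points for an adjusted p under 0.05. Chrna4 stays above 0 and Chrna2 below 0 in all 6 fits shown, and Chrnb2 lies near 0 with the thalamic or lateral habenula score.

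The other subunits and the proteins that act on nicotinic receptors were read from lists. Of the 11 other subunit genes, 3 were tested over the 8 libraries, and 0 passed in edgeR, DESeq2 or limma or had an unadjusted p under 0.05 (median log2 difference 0.09). Chrnb4, the beta4 subunit of the habenular receptor, had a log2 difference of 0.28 (SE 0.165, edgeR adjusted p = 0.290) and Chrna3, its alpha3 partner, 0.09 (SE 0.144, edgeR adjusted p = 0.703). Chrna4 thus rose in libraries in which Chrna3 and Chrnb4 did not pass the test, although the difference between these genes was not itself tested. Over 10 libraries 4 were tested with a median of 0.25, and 0 passed in edgeR, DESeq2 or limma or had an unadjusted p under 0.05. Chrna5, the accessory alpha5 subunit, was at -1.59 (SE 0.726, edgeR adjusted p = 0.326), and its 4.78 FPKM in control 2 stood against 0.40 to 0.81 FPKM in the other 3 controls. Over the 8 libraries, where Chrna5 lies under the filter, the sign turned to 0.24 (SE 0.297, edgeR adjusted p = 0.663, fitted with no filter). The medial habenula list had 0 of 13 called and 0 at an unadjusted p under 0.05 in all 3 tools and both sets, with medians of 0.11 over 8 and 0.27 over 10 libraries; Chat was at 0.24 over 8 (edgeR adjusted p = 0.293).

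Chaperones and prototoxins, membrane and cytoplasmic proteins that assemble, traffic or tune these receptors, had 11 of 13 genes tested. Over the 8 libraries 0 passed in edgeR or limma and 2 in DESeq2, with 5 at an unadjusted p under 0.05 in each tool and a median of 0.16. Among all 14993 genes tested there, 2910 passed in DESeq2. At an unadjusted p under 0.05 there were 4604 in edgeR, 4550 in DESeq2 and 4606 in limma. The prototoxin gene Ly6h had 15.6 ± 1.43 FPKM in controls and 21.5 ± 3.84 FPKM in withdrawal (log2 difference 0.44, SE 0.139, edgeR adjusted p = 0.0620). Vsnl1, a calcium sensor that binds alpha4, had a log2 difference of 0.52 (SE 0.173, edgeR adjusted p = 0.0722). Over 10 libraries the median was 0.03, and 0 passed in edgeR, DESeq2 or limma. At an unadjusted p under 0.05 there were 1, 1 and 2, against 2306, 2666 and 2267 of all 14928 genes. The smallest unadjusted p values were those of Lypd6b (1.53, edgeR adjusted p = 0.315) and Creld2 (-0.24, edgeR adjusted p = 0.339). Of the 6 genes listed for the muscle endplate, where receptors with beta1 cluster, 4 were tested over the 8 libraries. Lrp4, the agrin receptor, fell by 0.54 (SE 0.145, edgeR adjusted p = 0.0372) and Agrn, encoding agrin, rose by 0.22 (SE 0.0596, edgeR adjusted p = 0.0414), with a median of -0.09 over the 4. Among all 14993 genes tested there, 13.7% passed in edgeR, 2910 genes in DESeq2 and 1929 in limma. In DESeq2 1 of the 4 rose and 2 fell, and in limma 1 rose and 0 fell, so Lrp4 did not pass in limma. Over 10 libraries 0 of 4 passed in edgeR, DESeq2 or limma or had an unadjusted p under 0.05, with a median of -0.11.

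The genes most like each member across libraries were ranked by Pearson's r of log2 CPM, as a description over 10 points that share treatment and tissue content. For Chrna4 they were Slc8a3 (r = 0.984), Gas2 (0.983) and Ddx25 (0.983), and for Chrnb2 Snx31 (0.988), Inpp4b (0.987) and Shh (0.987). Chrna7 was followed by Palm2 (0.965), Lmo3 (0.961) and Tada2b (0.958), Chrna2 by Gng12 (0.983), Lysmd3 (0.977) and Sh3pxd2a (0.974), and Chrnb1 by Capg (0.963), Pgm2 (0.944) and Ehhadh (0.941). Over the 8 libraries Nudt2 (0.996), Fchsd2 (0.991) and Pygl (0.987) led for Chrna4 and Cit (0.993), Zdhhc22 (0.991) and Sh3kbp1 (0.987) for Chrnb2. There Chrna7 had Rbm27 (0.944) and Myo19 (0.943), Chrna2 had Gamt (0.977), Arid5b (0.976) and Gng12 (0.972), and Chrnb1 had Mmachc (0.985), Capg (0.938) and Canx (0.928). Gng12 and Capg were the genes named in both sets, for Chrna2 and Chrnb1.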

How the data were processed

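RNA-seq of 10 libraries (4 control, 6 nicotine withdrawal) was analysed from 1 table of 56691 genes. Each library had a column of whole-number read counts as the authors deposited them, per the file headers, and a column of FPKM, which the authors had computed, per its header. Reads went through HISAT2 2.2.1 on mm39, HTSeq 0.6.1 and cutadapt 1.9.1, as listed without order in the submitters' processing notes; annotation release and strand setting are not given in the sources used here. Symbols came from GENCODE M21 and matched 52073 identifiers; promoters came from RefSeq on GRCm38.p6, where 4 of the 5 members had an entry.

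Counts were tested with edgeR 4.0.16 in R 4.3.3 (quasi-likelihood, TMM factors, 2-sided, Benjamini-Hochberg over all genes tested, threshold 0.05), over 10 libraries and over 8. The filter of a mean FPKM of at least 1 kept 14928 and 14993 genes and at least 99.0% of each library's counts. Chrna2 failed it, so its fits come from all genes with counts. A pseudocount of 0.1 FPKM was used where Chrna2 entered a log ratio, since 1 library had 0. Marker scores are mean log2 CPM with a prior count of 2. Alternatives were DESeq2 1.42.0, limma 3.58.1, other scaling and filters, marker covariates, a replicate block and leaving out each library. The fits were also run on simulated counts that held no differences in tissue content between libraries. That run thus cannot show how the fits handle such differences. PCR reads carry no molecular identifiers, so intervals cover counting error only.

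The members, lists and tests were chosen with earlier results of these data known. Named genes were the members, up to 4 called genes of a described list by unadjusted p (or the 2 smallest where none was called), and the 3 genes most like each member, of which 1 for Chrna7 is not reported here.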

Additional observations from a re-analysis of the deposited data

Results flagged for a closer look

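Of 21 groups of values checked for a library far from the others, 3 had one, and each time it was withdrawal 2. Chance alone marks about 1 in 20 groups, but these 3 share a library that was already set apart. The flagged Chrna2 level and ratio also share values, so the 3 cannot be set against that rate. Chrna4 in withdrawal 2 was at 4.38 FPKM, where the other 5 withdrawal libraries were at 10.10 to 11.93 FPKM. Chrna2 in withdrawal 2 was at 0.22 FPKM, where the others were at 0 to 0.04 FPKM. The log2 ratio of Chrna2 to Chrnb2 was -4.68 in withdrawal 2 and -7.32 to -6.94 in the others.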

How the results depend on the processing

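The Chrna4 rise over 8 libraries passed under the scalings, filters and tools tried and in the 8 fits without 1 library (0.53 to 0.84). It missed the threshold with the thalamic (0.39), lateral habenula (0.42) or hippocampal and cortical score (0.26). Chrna2 over 8 libraries missed it with the same scores (-3.52, -3.36 and -2.82) and ran from -3.26 to -2.54 without 1 library. Deviations from the group means had r of 0.029, 0.305, -0.128 and 0.279 between same-numbered libraries. Between libraries of different number r ran from -0.501 to 0.460. These few values cannot decide whether the numbers pair libraries, and the sources used here do not say so. With a replicate block, Chrna4 over 8 missed the threshold at 0.65 (edgeR adjusted p = 0.0639), as did Chrna2 at -3.27 (edgeR adjusted p = 0.0655). Withdrawal 5 and withdrawal 6 have no control of the same number, so they add nothing to the group difference with this block. With this block edgeR called 0 genes over 10 libraries (1914 at an unadjusted p under 0.05) and 958 over 8.

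Over 10 libraries, the hippocampal and cortical score turned the sign of Chrna4 (-0.13), Chrna7 (0.039) and Chrnb2 (-0.22), the thalamic score that of Chrnb2 (-0.051), and the medial habenula score brought Chrna4 past the threshold (0.57). Over 8, the thalamic score turned Chrna7 (0.15) and Chrnb1 (0.16). Chrnb2 over 8 passed in DESeq2 (0.30), with a mean FPKM of at least 5 (0.29) and without withdrawal 6 (0.23 to 0.36 over the cases). Chrnb1 ran from -0.089 to 0.40 over 10 (below 0 without control 2, -0.052, or withdrawal 2, -0.089) and from -0.43 to 0.034 over 8, above 0 without control 1. Chrna2 over 10 ran from -3.54 to -1.49.

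Without the 2 libraries farthest from the median score, r was 0.67 (Chrna4, thalamic), 0.80 (Chrna4, lateral habenula) and 0.78 (Chrnb2, lateral habenula). Without 1 library, r with the thalamic score was 0.75 to 0.94 for Chrna4 and -0.94 to -0.51 for Chrna7. With the lateral habenula score it was 0.69 to 0.93 for Chrna4, 0.72 to 0.89 for Chrnb2, -0.87 to -0.69 for Chrna2 and -0.84 to -0.049 for Chrna7. The log2 Chrna4 to Chrnb2 difference over 10 was 0.31 to 0.50, the Chrna2 to Chrnb2 difference -1.91 to -1.01, and Chrna7 minus Chrnb1 -0.0046 to 0.32, below 0 without control 2.

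The count of called genes over 10 libraries (31) was 380 in DESeq2, 12 and 10 in limma with pseudocounts of 1 and 0.1 FPKM, 103, 2 and 857 with the lateral habenula, hippocampal and cortical and medial habenula scores, and 4 to 893 without 1 library (893 without withdrawal 2). Over 8 (2056) it was 64, 2 and 3 with the thalamic, lateral habenula and hippocampal and cortical scores, and 844 to 2882 without 1 library (844 without control 3, 1234, 1249 and 1060 without withdrawal 1, 3 and 5, and 2882 without withdrawal 6). The cause was not tested. Chrna2, with at most 37 counts a library, is limited by depth.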

Other observations

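Chrne, the epsilon subunit of the adult muscle receptor, was looked at after its values were seen; it lies under the filter. It was at 0.47 to 0.90 FPKM in controls 1, 3 and 4 and at 0.03 to 0.25 FPKM in withdrawal libraries 1, 3, 4, 5 and 6, without overlap (log2 difference -2.66, SE 0.519, edgeR adjusted p = 0.00380, fitted with no filter). These were 12 to 27 counts in the controls and 1 to 7 in the withdrawal libraries. In that fit 1334 of 34179 genes (3.90%) were called lower, and 2411 (7.05%) were lower without overlap, so Chrne shared this pattern with many genes. Withdrawal 2 had 2.89 FPKM and control 2 had 0.08 FPKM, and over all 10 libraries the log2 difference was 0.09 (edgeR adjusted p = 0.974). In GENCODE M21 the gene overlaps 4930544D05Rik on the opposite strand, so its reads may be shared.

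The prototoxin genes Lypd6 and Lypd6b were highest in withdrawal libraries 5 and 1, which also had the highest thalamic scores. Lypd6 was at 15.1 and 14.1 FPKM in them and at 3.76 to 12.8 FPKM in the rest. Over the 8 libraries it averaged 5.52 ± 3.02 FPKM in controls (n = 3) and 11.4 ± 3.86 FPKM in withdrawal (n = 5), a log2 difference of 1.04 (edgeR adjusted p = 0.0953, or 0.0402 with no filter). Lypd6b averaged 3.14 ± 2.89 and 9.29 ± 4.25 FPKM, a log2 difference of 1.58 (edgeR adjusted p = 0.0972, or 0.0397 with no filter). The groups overlapped for both genes.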
